A study of Mus musculus with 13 samples.

Results

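Striated muscle genes were followed in epithelium peeled from the mouse esophagus and forestomach. The set held 39 genes for sarcomere, calcium-handling and muscle metabolism proteins, chosen by gene symbol. Each had a probe set that named it alone, and where there were several the one with the highest mean was kept. Thus 39 of the 19934 genes of the array that had a probe set listed with 1 gene are described. All 39 passed the filter on low values, 5 of them only through 3 esophagus arrays named below. The members were sorted by the fibre type each gene is mainly known for. In this sorting 14 are fast-fibre genes, 5 are slow-fibre genes, 1 is the perinatal myosin gene Myh8 and 19 are grouped as used in both fibre types. A gene may also be used outside its group, and the sorting was not tested here.

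The series measured RNA on 13 arrays of a mouse whole-transcript Affymetrix gene array. The groups were Cre/p120 flox/flox esophagus (animals 193, 307, 313 and 335), Cre/p120 +/+ esophagus (214, 216 and 217), Cre/p120 flox/flox forestomach masses (412, 426 and 510) and Cre/p120 +/+ forestomach (214, 216 and 217, the same animals that gave control esophagus). All animals carried L2-Cre, in which a viral promoter drives Cre recombinase in squamous epithelium, and were of a mixed C57Bl/6 and 129 background. The floxed alleles are those of Ctnnd1, the gene of p120-catenin, an adherens junction protein that binds cadherins. The tissue was treated with dispase, an enzyme that loosens epithelium from the layers under it, and the epithelium was then pulled off by hand. Ages were not given in the sources used here. The flox/flox forestomach tissue came from masses alone, so genotype and the growth of a mass cannot be told apart there. The flox/flox animals are called flox/flox and the +/+ animals control below.

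In the mouse, unlike in humans, the outer muscle of the esophagus is striated along nearly its whole length, while the wall of the forestomach holds smooth muscle. A striated fibre contracts when calcium, released from the sarcoplasmic reticulum by the ryanodine receptor, binds troponin on the actin filament and lets myosin heads pull. Fast and slow fibres use different genes for the myosin, troponin and calcium-pump proteins, and a perinatal myosin marks developing fibres and persists in a few specialised adult muscles. Squamous epithelium is not known to build sarcomeres.

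Levels are given as log2 intensity. They are set against each other only within a gene, since probe sets differ in brightness. The median intensity lay between 65.3 and 72.4 on the linear scale over the arrays and precision is limited by how few arrays a group has. Arrays of a group correlated at 0.952 to 0.978 (flox/flox esophagus), 0.948 to 0.991 (control esophagus), 0.918 to 0.941 (masses) and 0.986 to 0.992 (control forestomach). Ctnnd1 lay between 9.95 and 10.13 in esophagus of flox/flox animals, against 10.21 to 10.50 in that of controls, and between 9.51 and 9.91 in the masses, against 10.14 to 10.40 in control forestomach. Where its probes lie relative to the deleted exons is not known here, so it does not check the genotypes. The mean of 10 squamous epithelium genes lay between 11.56 and 12.01 on all 13 arrays. Single genes of that list were less even. By limma 3 were called higher and 2 lower in esophagus than in forestomach over both genotypes, against 10.5% and 6.94% of all genes. In the masses 1 was called higher and 2 lower than in control forestomach, against 2.31% and 8.4% of all genes. Mass 426 stood apart with a mean of 12.04 for 8 glandular stomach genes, against 5.32 to 5.93 on the other 12 arrays. In these bulk samples fewer muscle cells and less RNA per muscle cell cannot be told apart.

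Muscle RNA was uneven between animals of the same group. Of the 7 esophagus arrays, flox/flox 307, flox/flox 335 and control 214 were the 3 highest for 32 of the 39 members, and these 3 arrays are named from the values themselves, with no test. The same arrays were the 3 highest for 7.19% of all genes tested. They stood more than 1 log2 unit above each of the other 4 esophagus arrays for 22 members, as they did for 1.28% of all genes tested. Myh1, Myh4, Myl1, Neb and Xirp2 passed the filter only through these 3 arrays. Their place in the counts was thus set by the same high values, and genes outside the set that passed in this way were not counted. The mean over the 39 members was 5.48, 7.31, 5.65 and 8.62 in flox/flox esophagus 193, 307, 313 and 335, against 7.56, 5.72 and 5.50 in control esophagus 214, 216 and 217. It was 5.61, 5.87 and 5.96 in masses 412, 426 and 510, against 5.60, 5.78 and 5.73 in control forestomach 214, 216 and 217. Esophagus 193, 313, 216 and 217 therefore lay within the forestomach's range or below it, and each genotype held both high and low arrays. The 7 members outside this pattern were Myh2, Myh7, Tnnt1, Tnni1, Tnnc1, Xirp1 and Trim63.

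**Figure D1:**
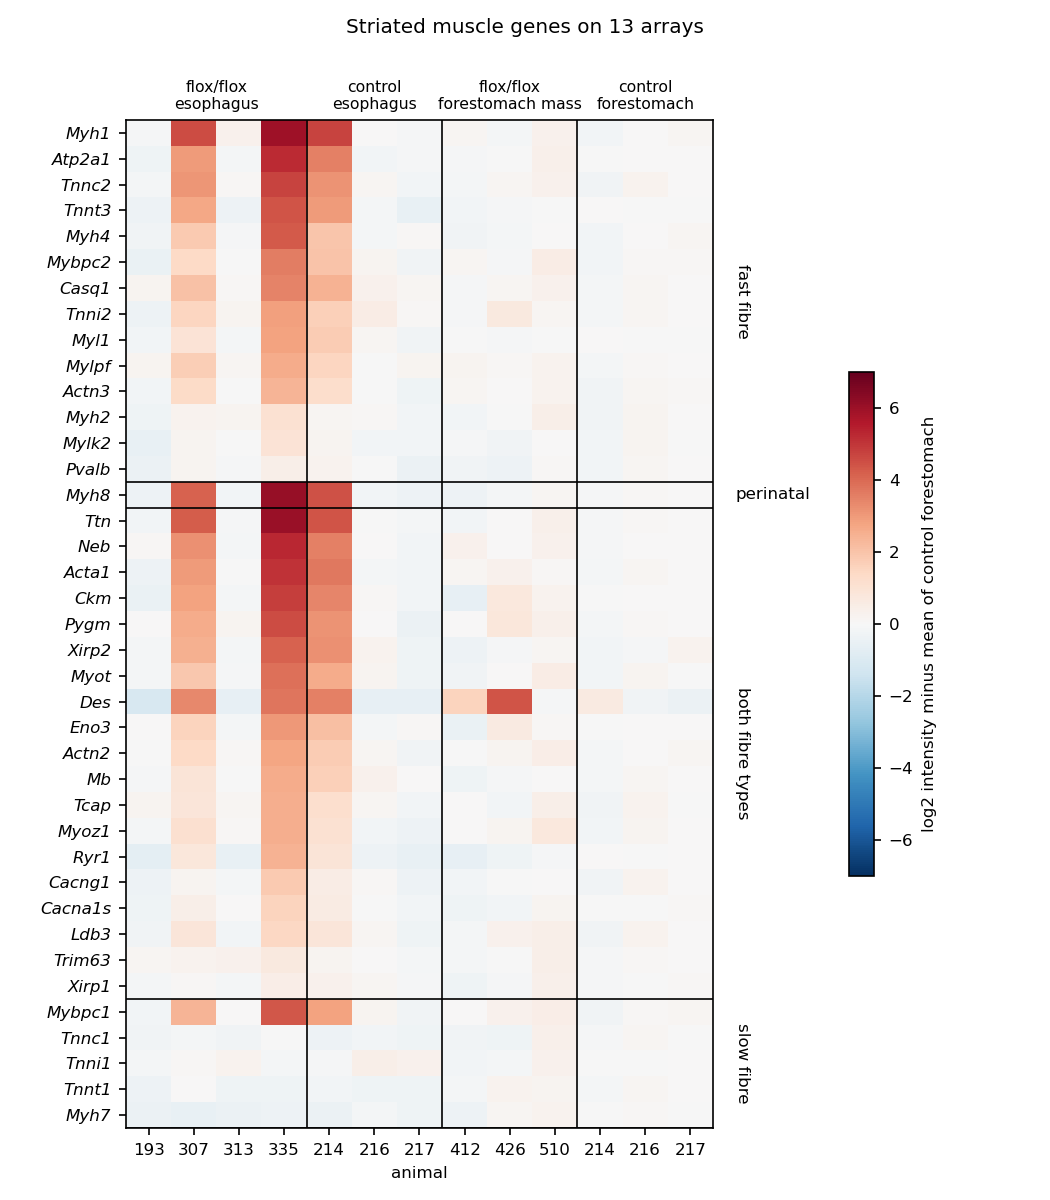
Log2 intensity of each of the 39 striated muscle genes (rows, grouped by fibre type) on each of the 13 arrays (columns, by animal and group), minus the gene's mean over the 3 control forestomach arrays. Flox/flox 307, flox/flox 335 and control 214 esophagus are red over most rows, up to 6.08 for Myh8 in flox/flox 335, and 4 of the 5 slow-fibre rows stay pale.

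The myosin heavy chains are the motor proteins of the thick filament. Their range over the esophagus arrays ran from 6.44 log2 units for Myh8, the widest of the set, to 0.37 for Myh7. Myh1, the fast type IIx chain, was 4.46, 9.12, 4.83 and 10.47 in flox/flox esophagus 193, 307, 313 and 335, against 9.27, 4.55 and 4.47 in control esophagus 214, 216 and 217, and lay between 4.36 and 4.87 on the 6 forestomach arrays. Myh8, the perinatal chain, was 5.12, 9.61, 5.29 and 11.56 in the flox/flox esophagus animals in the same order, against 9.93, 5.31 and 5.14 in control esophagus. Both genes had 3 esophagus arrays far above a flat remainder, and the high arrays came from both genotypes, so the groups overlapped. Over the mean of control forestomach, Myh8 was 17.5-fold, 67.7-fold and 21.8-fold higher in flox/flox 307, flox/flox 335 and control 214.

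Myh4, the fast type IIb chain, was 4.53, 6.56, 4.67 and 9.03 in flox/flox esophagus 193, 307, 313 and 335, against 6.70, 4.62 and 4.82 in control esophagus 214, 216 and 217. Flox/flox 335 was further above the other arrays for this gene than for most members. Myh2, the fast type IIa chain, was 5.06, 5.59, 5.53 and 6.42 in flox/flox esophagus, against 5.46, 5.44 and 5.13 in control esophagus, and 5.10 to 5.77 on the forestomach arrays. Only flox/flox 335 stood out for Myh2. Myh7, the slow chain that the heart also uses, was 5.57, 5.50, 5.60 and 5.62 in flox/flox esophagus, against 5.57, 5.87 and 5.71 in control esophagus. None of the esophagus arrays was high for Myh7, which lay between 5.63 and 6.25 on the forestomach arrays. These chains are close copies of one another, and how far their probes read a neighbouring chain was not tested.

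In the RefSeq gene table the fast and developmental chains stand next to each other on chromosome 11 in the order Myh3, Myh2, Myh1, Myh4, Myh8 and Myh13. The windows from 250 bases before to 50 bases after the RefSeq starts (GRCm38.p6) of 4 of them are shown, since the chains range from the steepest to a nearly flat member. Capitals mark matches, on either strand, to TTATTTATAG, to CAGCTG or to the CArG box, the site known for serum response factor.
Myh1, chr11:67199852-67200151, plus strand: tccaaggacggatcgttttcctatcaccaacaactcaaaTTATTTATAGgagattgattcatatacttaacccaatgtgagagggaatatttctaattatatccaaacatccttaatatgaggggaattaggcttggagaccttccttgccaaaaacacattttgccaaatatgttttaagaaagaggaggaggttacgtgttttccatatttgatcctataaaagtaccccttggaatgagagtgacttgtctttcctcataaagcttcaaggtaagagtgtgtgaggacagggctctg
Myh8, chr11:67276874-67277173, plus strand: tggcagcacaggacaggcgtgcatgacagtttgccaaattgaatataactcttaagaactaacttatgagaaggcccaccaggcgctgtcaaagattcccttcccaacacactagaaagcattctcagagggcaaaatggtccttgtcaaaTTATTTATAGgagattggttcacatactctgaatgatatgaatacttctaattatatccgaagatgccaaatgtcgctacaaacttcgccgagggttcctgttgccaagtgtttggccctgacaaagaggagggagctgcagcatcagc
Myh4, chr11:67237562-67237861, plus strand: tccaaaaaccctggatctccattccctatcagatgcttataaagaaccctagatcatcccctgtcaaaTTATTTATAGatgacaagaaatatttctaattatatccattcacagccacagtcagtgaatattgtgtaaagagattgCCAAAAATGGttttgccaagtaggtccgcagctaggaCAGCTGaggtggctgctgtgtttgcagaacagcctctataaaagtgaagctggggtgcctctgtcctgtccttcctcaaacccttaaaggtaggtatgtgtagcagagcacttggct
Myh2, chr11:67170777-67171076, plus strand: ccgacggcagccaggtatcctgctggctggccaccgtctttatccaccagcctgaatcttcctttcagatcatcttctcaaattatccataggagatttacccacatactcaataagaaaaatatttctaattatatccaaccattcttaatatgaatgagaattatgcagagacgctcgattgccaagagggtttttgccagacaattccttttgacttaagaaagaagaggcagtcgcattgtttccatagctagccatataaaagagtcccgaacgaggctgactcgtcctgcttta

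TTATTTATAG, one form of the motif known for MEF2, a transcription factor family of muscle, began 211 bases before the start in Myh1, 182 in Myh4 and 99 in Myh8, and was not in the Myh2 window. These were the only 3 of 35 member windows with it (8.57%), against 38 of all 32851 windows (0.116%). This form was picked because more members held it than any other form of the motif. Its high share among the members was thus set by that choice and is no test. CAGCTG, one form of the E-box known to bind myogenic factors such as MyoD, was in 17 of the 35 member windows (48.6%), against 16.3% of all windows. The MEF2 motif in all its forms, which includes TTATTTATAG, was in 6 member windows (17.1%), against 3.19% of all windows, and the CArG box in 4 (11.4%), against 1.63%. The 35 windows belong to 29 of the 39 members, and several are overlapping starts of 1 gene. A match of letters is a description and not a site of binding.

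The light chains and other thick-filament members followed Myh1 less steeply. Mylpf, the fast regulatory light chain, was 5.62, 7.12, 5.54 and 8.03 in flox/flox esophagus 193, 307, 313 and 335, against 6.92, 5.41 and 5.59 in control esophagus 214, 216 and 217. Myl1, the fast essential light chain, was 4.40, 5.53, 4.48 and 7.41 in flox/flox esophagus, against 6.40, 4.72 and 4.33 in control esophagus. For both light chains the same 3 arrays were high, with flox/flox 335 on top. Mybpc2 and Mybpc1, the fast and slow myosin-binding proteins C, were both above the control forestomach mean on these arrays. Mybpc1 was 7.78 and 9.74 in flox/flox 307 and 335, against 8.25 in control 214, with 5.19 to 5.63 on the other 4 esophagus arrays. It was the only 1 of the 5 slow-fibre members to follow the pattern. Mylk2, the skeletal myosin light chain kinase, had its highest esophagus level, 6.98, in flox/flox 335.

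The troponins, which carry the calcium switch on actin, split by fibre type. Fast troponin T, Tnnt3, was 6.34, 9.44, 6.34 and 11.14 in flox/flox esophagus 193, 307, 313 and 335, against 9.72, 6.60 and 6.17 in control esophagus 214, 216 and 217. Fast troponin C, Tnnc2, was 5.71, 8.91, 5.90 and 10.57 in flox/flox esophagus, against 9.01, 5.97 and 5.64 in control esophagus. Both fast genes had the same 3 high arrays and a flat remainder. Fast troponin I, Tnni2, was 7.21, 9.03, 7.74 and 10.42 in flox/flox esophagus, against 9.23, 8.07 and 7.63 in control esophagus. The remaining arrays were less even for Tnni2, but the same 3 were again highest.

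The slow troponins were flat over the same arrays. Tnnt1, slow troponin T, was 5.26, 5.61, 5.32 and 5.32 in flox/flox esophagus 193, 307, 313 and 335, against 5.42, 5.32 and 5.32 in control esophagus 214, 216 and 217. Tnni1, slow troponin I, was 6.12, 6.33, 6.53 and 6.15 in flox/flox esophagus, against 6.20, 6.66 and 6.56 in control esophagus. Neither gene separated the arrays that were high for their fast counterparts. Tnnc1, troponin C of slow and cardiac muscle, was 5.43, 5.52, 5.40 and 5.65 in flox/flox esophagus, against 5.31, 5.47 and 5.34 in control esophagus. Over the mean of control forestomach, the 14 fast-fibre members had a median difference of 1.59 in flox/flox 307 and 3.18 in flox/flox 335, against 1.88 in control 214. For the 5 slow-fibre members the medians were 0.01 and -0.12 in the same flox/flox animals, against -0.17 in control 214. A low intensity is not a proof of absence, and how well the slow probe sets detect their RNA was not tested.

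**Figure D2:**
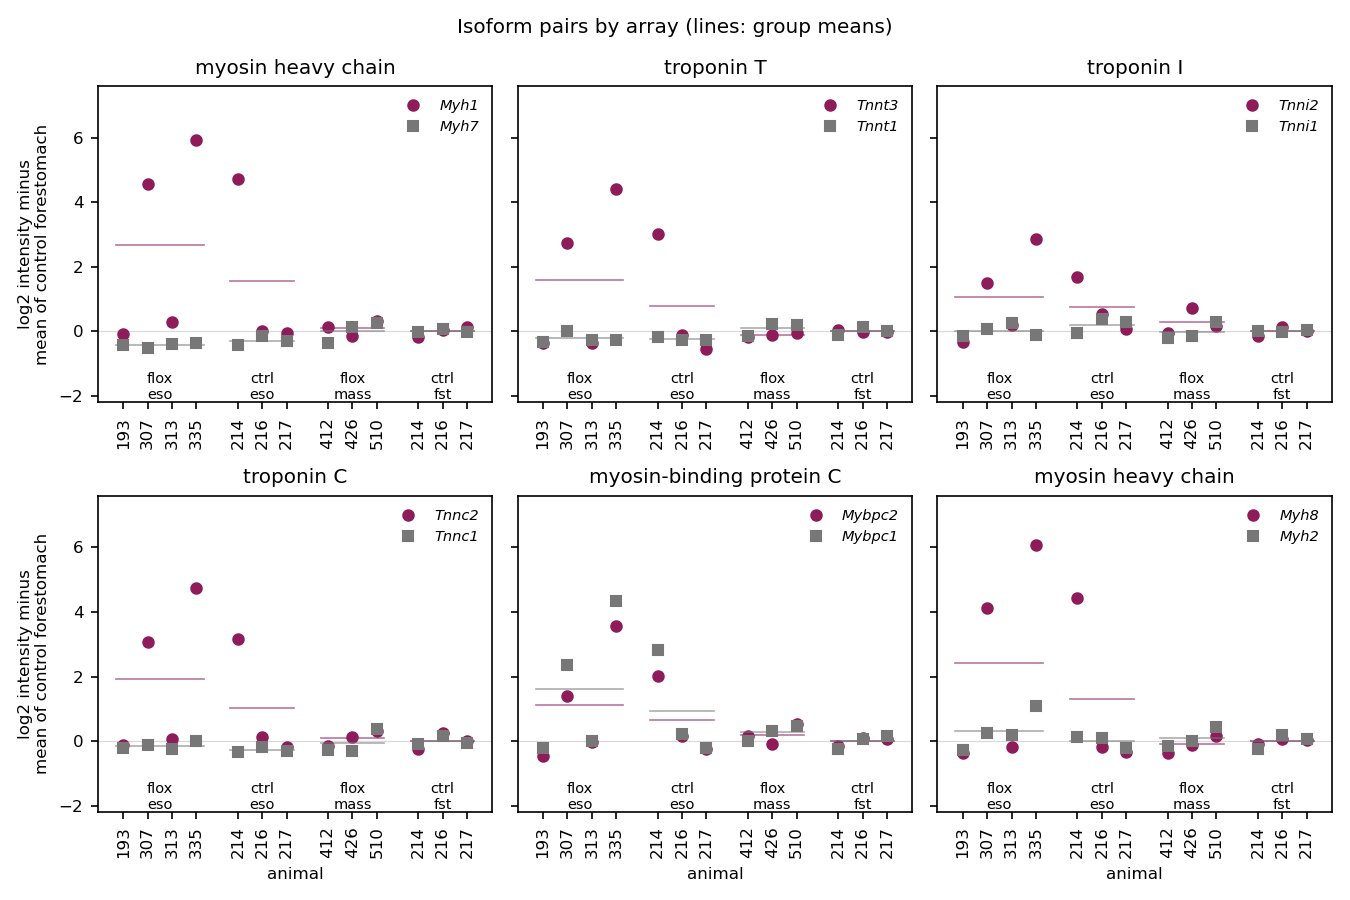
Log2 intensity minus the mean of control forestomach for pairs of isoform genes, by animal within the 4 groups, with lines at the group means. Fast or perinatal members (circles) rise in flox/flox 307, flox/flox 335 and control 214 esophagus, while Myh7, Tnnt1, Tnni1 and Tnnc1 (squares) stay near 0 and Mybpc1 rises with its fast partner. Myh2, a fast chain drawn as squares beside Myh8, stands out only in flox/flox 335 (1.08), against 0.25 in flox/flox 307 and 0.12 in control 214.

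The actin filament and its scaffolds were high on the same arrays. Acta1, skeletal actin, was 6.63, 9.96, 6.95 and 12.02 in flox/flox esophagus 193, 307, 313 and 335, against 10.67, 6.87 and 6.81 in control esophagus 214, 216 and 217. Ttn, the giant elastic protein titin, was 5.08, 9.54, 5.17 and 11.32 in flox/flox esophagus, against 9.66, 5.22 and 5.13 in control esophagus. Ttn had one of the widest gaps of the set, 4.31 log2 units between the lowest of the 3 high arrays and the highest of the other 4. Over the control forestomach mean, Acta1 was 32.9-fold higher and Ttn 66.3-fold higher in flox/flox 335. Neb, nebulin of the thin filament, was 8.04 and 10.14 in flox/flox 307 and 335, against 8.40 in control 214. At the Z-disc, which anchors the filaments, Actn2, Actn3, Myoz1, Myot, Ldb3 and Tcap reached 7.51 to 8.75 in flox/flox 335. Xirp2 of the Z-disc and muscle-tendon ends was 6.21 and 7.85 in flox/flox 307 and 335, against 6.91 in control 214, with 3.40 to 3.99 on the other 4 esophagus arrays. Its relative Xirp1 was 5.46 to 6.06 in flox/flox esophagus, against 5.52 to 5.91 in control esophagus, and Trim63, a muscle ubiquitin ligase of atrophy, was 6.03 to 6.59, against 5.81 to 6.10.

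Des, the gene of desmin, an intermediate filament of striated and also of smooth muscle, behaved differently from the other members. It was 4.92, 9.38, 5.48 and 9.76 in flox/flox esophagus 193, 307, 313 and 335, against 9.57, 5.47 and 5.46 in control esophagus 214, 216 and 217. It was 7.61, 10.42 and 5.98 in masses 412, 426 and 510, against 6.69, 5.81 and 5.61 in control forestomach 214, 216 and 217. Thus Des was highest of all arrays in mass 426, where 8 smooth muscle genes had a mean of 10.35.

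The calcium-handling members were those of fast fibres and of fibres in general. Ryr1, the ryanodine receptor that releases calcium, was 5.59, 7.08, 5.71 and 8.68 in flox/flox esophagus 193, 307, 313 and 335, against 7.17, 5.90 and 5.73 in control esophagus 214, 216 and 217. Atp2a1, the fast calcium pump, was 5.74, 9.03, 5.92 and 11.28 in flox/flox esophagus, against 9.56, 5.87 and 5.97 in control esophagus. Over the control forestomach mean, flox/flox 335 was 37.9-fold higher for the pump and 5.33-fold higher for the release channel. Casq1, the fast calcium store protein calsequestrin, was 5.51, 7.36, 5.42 and 8.79 in flox/flox esophagus, against 7.72, 5.60 and 5.45 in control esophagus. Cacna1s and Cacng1, subunits of the voltage sensor, reached 6.89 and 8.20 in flox/flox 335. Pvalb, parvalbumin, a calcium buffer of the fastest fibres, was 4.77, 5.36, 5.11 and 5.57 in flox/flox esophagus, against 5.43, 5.13 and 4.75 in control esophagus. It kept the order of the arrays with a difference of only 0.23 between the lowest of the 3 high arrays and the next.

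The metabolic members gave the same order. Ckm, muscle creatine kinase, was 5.75, 9.04, 6.12 and 11.11 in flox/flox esophagus 193, 307, 313 and 335, against 9.67, 6.34 and 6.03 in control esophagus 214, 216 and 217. Mb, the oxygen store myoglobin, was 6.42, 7.43, 6.50 and 9.13 in flox/flox esophagus, against 8.18, 6.80 and 6.52 in control esophagus. Both had flox/flox 335 first, then control 214, then flox/flox 307, an order shared by 30 of the 39 members. These include members that were nearly flat, such as Myh7 and Xirp1. Of the 22 members more than 1 log2 unit above the other 4 esophagus arrays, 20 had this order. Its share over all genes was not counted. Pygm, muscle glycogen phosphorylase, was 8.30 and 10.29 in flox/flox 307 and 335, against 8.89 in control 214, and Eno3, muscle enolase, was 7.80 and 9.25, against 8.33.

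Members that rose on all 3 high arrays were compared in their proportions there. The remaining members were left out, so the ratios speak only for those chosen. For the 23 members more than 1 log2 unit above the control forestomach mean on all 3 arrays, that mean was subtracted on the linear scale. The net intensity of flox/flox 335 over control 214 then had a median of 2.89, with quartiles of 2.54 and 3.24. Des was lowest at 1.16, Myoz1 was at 4.59 and Myh4 was highest at 6.40. Flox/flox 307 over control 214 had a median of 0.758, between 0.531 for Mybpc2 and 1.22 for Mylpf. Des and Myh4 therefore lay furthest from the median ratio of flox/flox 335 over control 214, in opposite directions. These ratios describe single arrays and carry no test.

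**Figure D3:**
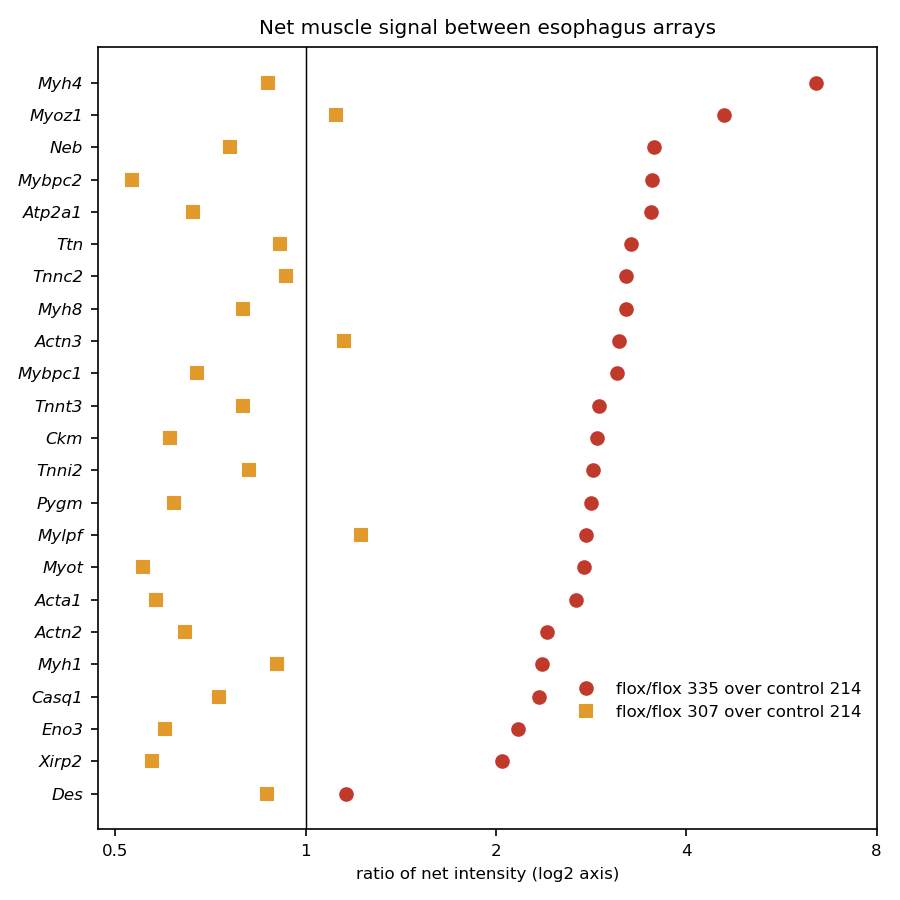
Ratio of net intensity (linear intensity minus the control forestomach mean, on a log2 axis) for 23 striated muscle genes, for flox/flox 335 over control 214 (circles) and flox/flox 307 over control 214 (squares). Most circles sit near the median of 2.89, with Myh4 at 6.40 and Des at 1.16, and most squares lie below 1.

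The first comparison set flox/flox against control esophagus, with 4 and 3 animals. No member was called higher or lower by limma at an adjusted p under 0.05, against 0% of all 15875 genes tested called higher and 0.0126% called lower. At an unadjusted p under 0.05 the count of members was also 0. The median difference of the 39 members was 0.51 log2 units, against 0.01 over all genes tested, and 36 members were above 0, against 51.6% of all genes. The largest differences were 1.12 for Myh1 (SE 1.46, limma adjusted p = 0.988), 1.11 for Myh8 (0.993), 1.10 for Ttn (0.992), 0.99 for Neb (0.985) and 0.92 for Pygm (0.975). The arrays of the genotypes overlapped for all 39 members, while 4.18% of all genes had every flox/flox array above every control array and 6.1% had the opposite. The fast-fibre members had a median of 0.54, the slow-fibre members 0.02 and the members of both fibre types 0.55. Myh1 was 0.31 without control 217 and 2.04 without flox/flox 193, and without flox/flox 307, flox/flox 335 or control 214 it did not pass the filter and was not tested. The sign rested on single animals, as the median was -0.12 without flox/flox 335 and 1.07 without control 214. Flox/flox esophagus had 2 high arrays of 4 and control esophagus had 1 of 3.

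In the forestomach, where masses were set against control tissue, no member was called by limma, against 2.31% of all genes called higher and 8.4% called lower, and none had an unadjusted p under 0.05. The median difference was 0.08, with 24 of 39 members above 0, and was -0.07 without mass 510. The largest difference was that of Des, 1.97 (SE 1.53, limma adjusted p = 0.482), and it was 0.76 without mass 426. The next were 0.40 for Pygm (0.878), 0.32 for Myoz1 (0.798), -0.32 for Ryr1 (0.825) and 0.27 for Tnni2 (0.860). These also moved with single arrays, as Pygm and Tnni2 were 0.21 and 0.05 without mass 426, Myoz1 was 0.11 without mass 510, and Ryr1 was -0.19 without mass 412. Every mass lay below every control array for 3 members (Myl1, Tnnt3 and Ryr1), against 17.5% of all genes, and no member had the opposite, against 10.3%. No member was called by limma for the difference between the esophagus and forestomach genotype differences, and none had an unadjusted p under 0.05, against 0.0567% of all genes called higher and 0.0819% called lower. The largest such differences were -1.41 for Des (limma adjusted p = 0.902), 1.21 for Myh8 (0.928), 1.04 for Ttn (0.939), 1.02 for Myh1 (0.940) and 0.93 for Myh4 (0.894).

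Between the tissues of the 3 control animals, esophagus against forestomach, no member was called by limma, against 3.16% of all genes called higher and 3.51% called lower, and none had an unadjusted p under 0.05. The median difference was 0.63 with 34 of 39 members above 0, and it was -0.09 without control esophagus 214. Myh1 differed by 1.55 (SE 1.56, limma adjusted p = 0.611), Ttn by 1.40 (0.652), Myh8 by 1.31 (0.683), Acta1 by 1.13 (0.661) and Neb by 1.12 (0.661). Every esophagus array lay below every forestomach array for Myh7, Tnnt1 and Tnnc1, against 18% of all genes, and no member had the opposite, against 19.3%. In animal 214 Myh8 was 9.93 in the esophagus, against 5.39 in the forestomach. This comparison shares its control esophagus arrays with the first one. The fit did not pair the tissues of an animal. With the animal as a random block more genes were called over the whole array, but still no member.

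Taking the mean of both genotypes, 2 members were called lower in the 7 esophagus arrays than in the 6 forestomach arrays, against 6.94% of all genes, and none higher, against 10.5%. The share of members called lower was thus not above that of all genes. Both were slow-fibre genes of low level, at 5.50 to 6.25 for Myh7 and 5.26 to 5.84 for Tnnt1 over all arrays. Myh7 averaged 5.58 ± 0.06 in flox/flox esophagus and 5.71 ± 0.15 in control esophagus, against 6.00 ± 0.33 in the masses and 6.01 ± 0.06 in control forestomach (SD, n = 4, 3, 3 and 3; difference -0.36, SE 0.10, limma adjusted p = 0.0280). Tnnt1 averaged 5.38 ± 0.16 and 5.36 ± 0.06 in the same esophagus groups, against 5.70 ± 0.20 in the masses and 5.60 ± 0.13 in control forestomach (difference -0.28, SE 0.09, limma adjusted p = 0.0441). Both calls were lost in most fits without a single array, as Myh7 had an adjusted p = 0.0735 without control forestomach 216 and Tnnt1 an adjusted p = 0.114 by limma. Tnnt1 also lost its call with no filter, quantile normalization, median centring or an intensity trend with a robust prior. The arrays of the tissues overlapped for both genes. The median difference of the 39 members was 0.77, against -0.01 over all genes, and 36 members were above 0, against 47.9% of all genes. The largest were 2.06 for Myh1 (SE 1.07, limma adjusted p = 0.193), 1.92 for Ttn (0.226), 1.92 for Myh8 (0.237), 1.52 for Neb (0.241) and 1.48 for Atp2a1 (0.260). No member had all esophagus arrays above or below all forestomach arrays, against 3.43% and 1.66% of all genes. Without flox/flox 307, flox/flox 335 and control 214 the median was -0.18 and no member was called. In that fit 34 members were tested, since Myh1, Myh4, Myl1, Neb and Xirp2 pass the filter only through those arrays.

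**Figure D4:**
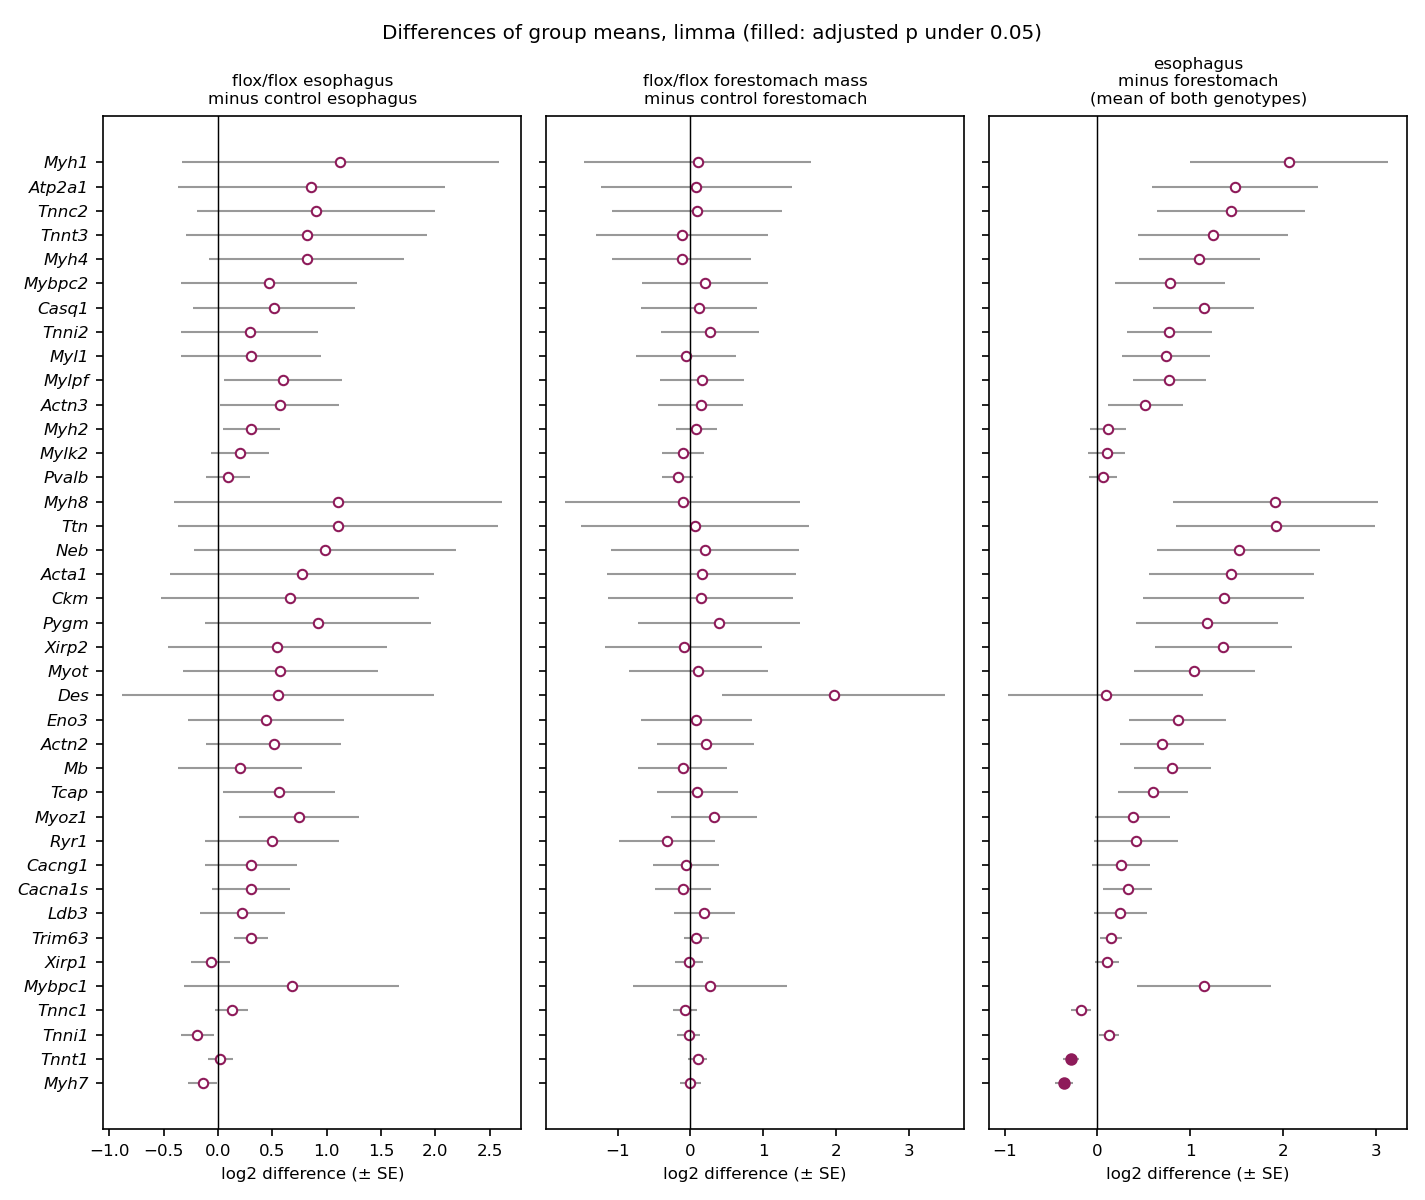
Log2 differences of group means (points) with the SE of the limma fit (bars) for the 39 members in 3 comparisons, with filled points for an adjusted p under 0.05. The steepest members have the widest bars, as for Myh1 in the esophagus (1.12, SE 1.46), and the only filled points are Myh7 and Tnnt1, lower in esophagus than in forestomach.

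Genes of other cell types were also uneven between arrays. The mean of 8 smooth muscle genes was 5.90, 9.31, 6.09 and 7.85 in flox/flox esophagus 193, 307, 313 and 335, against 9.49, 6.15 and 6.07 in control esophagus 214, 216 and 217. It was 8.08, 10.35 and 6.80 in masses 412, 426 and 510, against 7.88, 6.10 and 6.07 in control forestomach 214, 216 and 217. The 3 esophagus arrays high in striated muscle were thus high in smooth muscle too, but flox/flox 335 was first of them for striated and last for smooth muscle genes. Control forestomach 214 and masses 412 and 426 were high in smooth muscle genes, while their striated mean lay between 5.595 and 5.871. Of the smooth muscle genes, Myh11, the smooth muscle myosin, was 10.96 and 8.97 in flox/flox 307 and 335, against 10.83 in control 214, and 12.05 in mass 426.

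The mean of 9 fibroblast and matrix genes was 6.39, 9.12, 6.33 and 9.63 in flox/flox esophagus 193, 307, 313 and 335, against 10.40, 6.58 and 6.38 in control esophagus 214, 216 and 217. The mean of 6 endothelial genes was 4.94, 6.64, 5.19 and 7.36 in flox/flox esophagus, against 7.17, 5.34 and 5.14 in control esophagus. Both lists were high on the arrays that were high in striated muscle. The endothelial genes kept the same order and the fibroblast genes had control 214 first. The fibroblast mean was 8.70, 8.99 and 7.235 in masses 412, 426 and 510, against 6.53 to 7.37 in control forestomach. The endothelial mean was 7.24, 7.25 and 6.27 in the same masses, against 5.32 to 6.08. The part of these other tissues in the members' values was not tested. Of the smooth muscle, fibroblast and endothelial genes none was called in the esophagus genotype comparison, and their median differences were 0.03, 0.09 and 0.11.

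**Figure D5:**
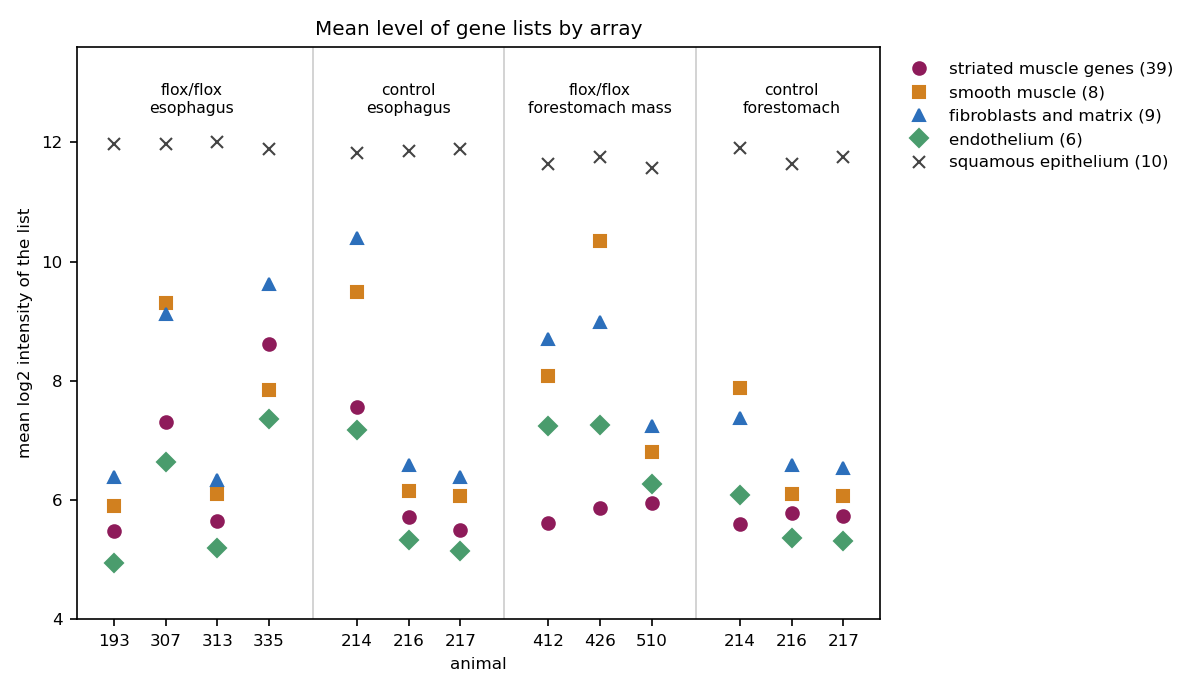
Mean log2 intensity of 5 gene lists (points) by animal within the 4 groups. Striated muscle genes are high only in flox/flox 307, flox/flox 335 and control 214 esophagus, smooth muscle genes also in masses 412 and 426 and control forestomach 214. The mean of the squamous epithelium genes lies between 11.56 and 12.01 throughout, while single genes of that list differ more.

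Further muscle genes outside the set were read on the same arrays. Of other striated muscle genes 25 were analysed. In the esophagus genotype comparison none of them was called, and their median difference was 0.17 with 22 above 0. Between the tissues only Jph1, a junctophilin that ties the cell membrane to the calcium store, was called higher in esophagus (0.56, SE 0.18, limma adjusted p = 0.0484). Of all genes 10.5% were called higher there, so 1 call among 25 genes is below that share. Of 4 other slow-fibre genes Myl3, the slow and cardiac essential light chain, was 7.43 and 9.07 in flox/flox 307 and 335, against 7.77 in control 214, with 5.82 to 6.39 on the other 4 esophagus arrays. Myl2, the slow and cardiac regulatory light chain, lay between 4.62 and 5.21 on all 13 arrays. Casq2, the calsequestrin of slow and cardiac muscle, was 6.43 and 6.36 in flox/flox 307 and 335, against 6.31 in control 214, with 4.49 to 5.04 on the other 4 esophagus arrays, and was also 6.005 and 6.691 in masses 412 and 426. Myh7b, a slow-type myosin chain, lay between 6.38 and 6.88 on all 13 arrays. The slow genes were thus mixed, with Mybpc1, Myl3 and Casq2 high where Myh7, Tnnt1, Tnni1, Tnnc1, Myl2 and Myh7b were flat. Of all arrays Casq2, like Des, was highest in mass 426.

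Embryonic and regulatory genes were mostly flat. Myh3, the embryonic myosin chain, lay between 4.25 and 4.83 on all 13 arrays. Actc1, the actin of heart and developing muscle, was 9.54 and 10.48 in flox/flox 307 and 335, against 9.64 in control 214, with 6.43 to 6.66 on the other 4 esophagus arrays. Myod1 and Myog, master regulators of muscle formation, lay between 5.64 and 6.33 and between 5.14 and 5.76 on the esophagus arrays. Pax7, the satellite cell factor, lay between 5.91 and 6.25 there. Mef2c, a MEF2 factor, was 6.10 and 7.84 in flox/flox 307 and 335, against 6.90 in control 214, with 4.66 to 5.08 on the other 4. In the esophagus genotype comparison no gene of these lists, nor of the neuromuscular junction, atrophy or cardiac lists, was called by limma, with 1 cardiac gene under an unadjusted p of 0.05. Between the tissues Fbxo32 (0.80, SE 0.21, limma adjusted p = 0.0260) and Foxo1, genes of the atrophy programme that many tissues use, were called higher in esophagus and Gadd45a lower. Of all genes 10.5% were called higher and 6.94% lower, and the atrophy list holds only 5 genes.

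The genes most like the members in pattern were ranked by Pearson's r with the members' mean over the 7 esophagus arrays, as a description over arrays that fall into a high and a low set. The first 8 outside the set were Myom1 (0.997), Musk (0.996), Myom2 (0.995), Mylk4 (0.994), Klhl41 (0.994), Mn1 (0.993), Car3 (0.992) and Nrap (0.990). Myom1 and Myom2 are proteins of the M-band that ties thick filaments together, Musk is the kinase of the neuromuscular junction, and Klhl41 and Nrap are muscle proteins of filament assembly. Myom1 was 4.94, 7.83, 5.48 and 9.68 in flox/flox esophagus 193, 307, 313 and 335, against 8.32, 5.10 and 5.02 in control esophagus 214, 216 and 217, and was also 7.99 in mass 426.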

How the data were processed

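Epithelial RNA was hybridised as biotin-labelled cRNA, per the labels' protocols. The authors deposited linear intensities computed with GCRMA, which corrects background by probe sequence and summarises probes, per the submitters' processing notes; its version is not given in the sources used here. The table held 34729 probe sets: 21633 name a single gene, 1306 name several genes and 11790 name no gene. Intensities were put on the log2 scale after a floor of 1, which no value fell below. Of a gene's probe sets the one with the highest mean was kept. Genes reaching a log2 value over 5 on 3 or more arrays were tested (15875 of 19934). With limma 3.58.1 (lmFit and eBayes, R 4.3.3) a mean per group was fitted in 1 fit of all 13 arrays with 9 residual degrees of freedom, and p-values were adjusted by Benjamini-Hochberg over all genes tested. The code was tested on simulated data.

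The members and lists were chosen with earlier results of these data known. All members may be named; values by array are given for 22 major isoform and sarcomere genes and every called member, differences for called members or else the 5 largest, other genes if called or else up to 4 a list, and the 8 genes most like the members. Some listed genes are not reported here. Animals 214, 216 and 217 each gave both control tissues: the deviations of the same animal from the group means correlated at 0.401, 0.399 and 0.315, and those of different animals at -0.425 to 0.129, so the numbers pair these arrays. Replicates are separate animals by their labels, and no scan or extraction batch is given in the sources used here. The alternatives tried were no filter, a filter at log2 7, quantile normalization, median centring, array weights, an intensity trend with a robust prior, other choices of probe set and of arrays in the fit, the animal as a replicate block, and leaving out each array. Sequences and gene order come from RefSeq; the genome build of the array design is not given in the sources used here, and the positions of probes were not used.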

Additional observations from a re-analysis of the deposited data

How the results depend on the processing

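The count of members called stayed at 0 in the esophagus genotype comparison, the forestomach comparison and the difference of both under all alternatives run. Between the control tissues it was 2 with array weights and 0 otherwise. Between the tissues over both genotypes it was 2, and it was 1 with no filter, with quantile normalization, with median centring and with an intensity trend and robust prior. It was 0 with a filter above log2 7, under which 18 members were tested and neither called gene, and 0 without control esophagus 214 and flox/flox 307 and 335 together. Leaving out 1 array at a time gave 0 to 2. Myh7 lost its call without control esophagus 214 (adjusted p = 0.0652) or 217 (0.0635), flox/flox 307 (0.0516), control forestomach 216 (0.0735) or 217 (0.0565), or mass 426 (0.0502) or 510 (0.0537). Tnnt1 lost it with no filter (0.0514), quantile normalization (0.0912), median centring (0.0759) and an intensity trend with a robust prior (0.0518), and without any single array other than flox/flox 307, control forestomach 214 and mass 412 (0.0621 to 0.114). The causes were not tested. The median difference of the members ranged over single arrays left out from -0.1157 to 1.0725 between genotypes in esophagus, from -0.0651 to 0.16 in forestomach, from -0.0888 to 0.9615 between control tissues, from 0.374 to 0.9404 between tissues over both genotypes (-0.1758 without the 3 arrays together), and from -0.1426 to 0.8928 for the difference of the genotype differences. Between genotypes in esophagus, Myh8, Ttn and Neb turned to -0.1157, -0.0797 and -0.0713 without flox/flox 335 (and were 2.6729, 2.598 and 2.2004 without control esophagus 214), and Myh8 and Ttn to -0.0168 and -0.0568 without the 3 arrays. Between control tissues Ttn, Myh8, Acta1 and Neb turned to -0.0946, -0.2554, -0.1434 and -0.0888 without control esophagus 214 (and were 2.1714, 2.1379, 1.7889 and 1.7782 without 217), and Ttn, Myh8 and Acta1 to the same values without the 3 arrays. With 1 array left out Myh1 ranged from 0.3133 to 2.0448 between genotypes in esophagus, over the fits in which it passed the filter. Without flox/flox 307, flox/flox 335 or control esophagus 214 it was not tested, so whether its sign holds there is not shown. In the forestomach, with 1 array left out, Pygm ranged from 0.206 to 0.5732, Myoz1 from 0.109 to 0.4868, Ryr1 from -0.4515 to -0.1885, Tnni2 from 0.0521 to 0.4358 and Des from 0.7561 to 2.976. In the difference of the genotype differences Myh8 and Ttn turned to -0.0094 and -0.1426 without flox/flox 335 (and were 2.7792 and 2.535 without control esophagus 214), and Ttn to -0.1197 without the 3 arrays. With the animal as a random replicate block (correlation 0.396) 2 members were called between the tissues over both genotypes and 0 between control tissues, and with a fixed replicate block 0 were called between control tissues, so the block changed no member's call. Counts over all genes did move with the random block, to 2670 between control tissues (1059 without), 3858 between tissues over both genotypes (2764 without), 145 for the difference (22 without) and 0 in esophagus (2 without). Low intensities near the background limit what can be said of members such as Myh7, Tnnt1, Myl1 and Pvalb.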
